A study of Mus musculus with 6 samples.

Results

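Differentiating spermatogonia are the germ cells between the stem cell pool and meiosis, and 9 genes that mark them or drive their passage up to meiotic entry were examined in sorted leptotene/zygotene (L/Z) spermatocytes. The genes were taken by symbol: Kit, Sohlh1, Sohlh2, Dmrt1, Dmrtb1, Ccnd2, Rhox13, Lin28b and Crabp1. All 9 were found in the table of 54532 genes, and all 9 were among the 8513 genes with enough reads to be tested. They did not move as 1 group. In Eef1g-cKO spermatocytes, Ccnd2, Crabp1, Sohlh1, Kit and Dmrt1 were lower, Rhox13 and Lin28b were higher, and Sohlh2 and Dmrtb1 overlapped between genotypes.

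The RNA came from mouse testes at 12 days postpartum (dpp), with 3 libraries labelled wild type (control) and 3 labelled Eef1g cKO. Eef1g encodes the gamma subunit of the translation elongation factor eEF1. In the cKO a floxed Eef1g allele on a C57BL/6J background was deleted by Stra8-GFPCre, which recombines in germ cells from the first differentiating spermatogonia onward. Deletion thus began at a stage that the genes studied here mark. Which cells of these sorts gave their transcripts was not measured. The sources used here do not state whether control males carried Cre or floxed alleles, nor how many animals or cells made up a library, so p-values measure the spread between these libraries. Cells were sorted on staining with a Hoechst DNA dye, and not on a spermatogonial surface marker.

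Spermatogonia become committed to differentiation when retinoic acid, a vitamin A derivative, switches on the receptor tyrosine kinase KIT. KIT is then bound by its ligand KITL from Sertoli cells, the somatic nurse cells of the tubule, and supports survival and division. SOHLH1 and SOHLH2 are germ cell basic helix-loop-helix (bHLH) factors that bind DNA at E-boxes and favour Kit expression, whereas DMRT1 and DMRTB1 are DM domain factors that act on the choice between mitosis and meiosis. Cyclin D2 drives entry into the cell cycle, LIN28B blocks maturation of let-7 microRNAs, RHOX13 is a homeobox protein of germ cells and CRABP1 binds retinoic acid in the cytoplasm. Several of these transcripts, Kit and Dmrt1 among them, decline as cells pass into meiotic prophase.

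Upstream sequences are shown for the bHLH partners Sohlh1 and Sohlh2, whose transcripts behaved differently, and for Kit and Rhox13, which lay at opposite sides of the comparison. They are RefSeq promoter sequences of GRCm38.p6, of which 7 of the 9 genes had an entry, and start 250 bases before the annotated start. Bases inside an annotated exon of the gene were left out. Capitals mark E-boxes (CANNTG, which reads the same way on both strands). The Sohlh1 stretch is chr2:25847249-25847498 on the minus strand, Sohlh2 is chr3:55181794-55182027 on the plus strand, Kit is chr5:75574737-75574915 on the plus strand and Rhox13 is chrX:38120590-38120839 on the plus strand.
Sohlh1: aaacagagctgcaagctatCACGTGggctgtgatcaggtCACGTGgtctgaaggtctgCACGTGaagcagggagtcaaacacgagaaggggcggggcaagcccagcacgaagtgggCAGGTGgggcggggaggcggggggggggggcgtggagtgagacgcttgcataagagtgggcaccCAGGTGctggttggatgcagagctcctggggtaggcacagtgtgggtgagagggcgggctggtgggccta
Sohlh2: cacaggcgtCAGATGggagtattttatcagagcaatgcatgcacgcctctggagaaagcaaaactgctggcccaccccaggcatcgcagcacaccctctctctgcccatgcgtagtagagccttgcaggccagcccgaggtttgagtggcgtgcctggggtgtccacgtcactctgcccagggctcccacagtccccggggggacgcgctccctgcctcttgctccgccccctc
Kit: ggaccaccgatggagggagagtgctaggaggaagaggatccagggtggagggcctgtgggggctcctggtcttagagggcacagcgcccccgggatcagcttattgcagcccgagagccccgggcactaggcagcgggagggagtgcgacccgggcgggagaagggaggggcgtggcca
Rhox13: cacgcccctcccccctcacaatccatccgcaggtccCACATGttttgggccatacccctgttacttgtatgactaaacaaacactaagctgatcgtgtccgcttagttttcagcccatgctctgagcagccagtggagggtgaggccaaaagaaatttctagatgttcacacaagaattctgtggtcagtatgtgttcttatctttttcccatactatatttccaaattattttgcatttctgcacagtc

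The 250 bases before the Sohlh1 start held 5 E-boxes, and 3 of them had the form CACGTG. Sohlh2 and Rhox13 held 1 E-box each and Kit held 0. Of 32851 such windows in the mouse promoter table, 66.2% held a CANNTG and 6.02% a CACGTG, so a single E-box was common and CACGTG was not. Lin28b, which was higher in Eef1g-cKO, also held 1 CACGTG, in a window on chromosome 10 from 45470202 to 45470451. That window precedes an annotated start inside the span of the gene given below, and not its outermost start. The Rhox13 window ends at 38120839 and does not adjoin the gene span given below, which begins at 38121219. These matches describe letters in a window and not binding.

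Library totals ran from 763133 to 2617648 reads assigned to genes, and 3 reads, taken as the detection floor, equalled 1.18 to 4.63 CPM (reads per 1000000 of the scaled library). The shallowest library was Eef1g-cKO replicate 3, which also stood apart from the other Eef1g-cKO libraries, with correlations of log2 CPM to them of 0.863 and 0.866 against 0.911 between those. Eef1g itself had 222, 226 and 212 CPM in the control libraries and 139, 151 and 119 CPM in the Eef1g-cKO libraries, so its log2 fold change was −0.68 (SE 0.20) at an adjusted p of 0.029. The count covers the whole gene, including exons outside the deleted stretch. Adjusted p-values here and below are from edgeR's quasi-likelihood test with Benjamini-Hochberg adjustment over all 8513 genes. Eef1g passed 0.05 in 9 of 17 other fits, and missed it without any 1 control library or without Eef1g-cKO replicate 1. L/Z markers were abundant in every library, with a summed level of 10490 to 12023 CPM for 16 genes in control and 22542 to 29477 CPM in Eef1g-cKO.

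Somatic transcripts moved with genotype as well, and their part in the results on the 9 genes was not tested. Of all tested genes, 6.01% were lower in Eef1g-cKO. Of 15 Sertoli cell markers, 7 could be tested and 4 were lower, and the summed level was 323 to 909 CPM in control against 121 to 171 CPM in Eef1g-cKO. Without control replicate 2, where the sum was highest, Clu, Aard and Cldn11 were no longer past the threshold and Rhox8 was. Among Sertoli transcription factors, Sox9 had 8, 107 and 56 reads in control and 4, 45 and 0 in Eef1g-cKO (adjusted p 0.167). Wt1 had 42, 145 and 51 reads in control and 28, 4 and 1 in Eef1g-cKO (adjusted p 0.0591), while Gata4 and the hormone gene Amh had at most 2 reads in any library. Sertoli transcripts were thus present, most of all in control replicate 2. Of 12 peritubular and stromal markers, 5 could be tested and 4 were lower, at 195 to 330 CPM against 23.2 to 87.4 CPM, and the collagen genes Col1a1 and Col1a2 missed the threshold without control replicate 1. Leydig cell markers summed to 8.40 to 11.5 CPM in control against 1.57 to 7.28 CPM in Eef1g-cKO, and 8 of 9 had at most 3 reads in every library. Undifferentiated spermatogonia markers overlapped between genotypes in sum, at 629 to 715 CPM in control against 563 to 752 CPM in Eef1g-cKO. Much of this sum was Taf4b, at 365 ± 16.2 CPM (SD, n = 3) in control against 573 ± 126 CPM in Eef1g-cKO. Without Taf4b, a split made after the values were seen and not tested, the rest of the list summed to 283 to 339.8 CPM in control and 44.8 to 130.2 CPM in Eef1g-cKO, lower in each Eef1g-cKO library. In these bulk sorts, fewer cells that express a gene and less of its RNA per cell cannot be told apart. The paper stained sorted cells from testes of the same age for meiotic proteins. Most of them, but not all, were scored as L/Z spermatocytes, and the paper reports a comparable share in both genotypes. What the remaining cells were is not stated, nor whether the stained sorts were those sequenced here.

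**Figure D1:**
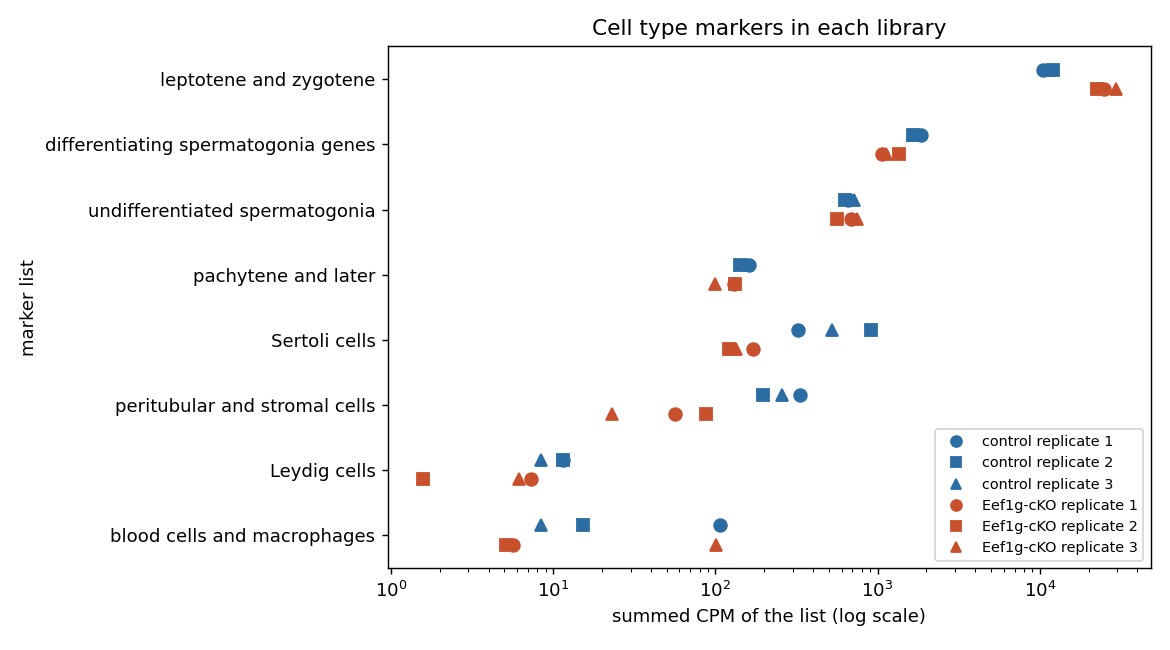
Summed CPM (horizontal log axis) of marker genes of 8 cell types in each of the 6 libraries, blue for control and orange for Eef1g-cKO, with marker shape giving the replicate. Leptotene and zygotene markers lie higher in Eef1g-cKO. The differentiating spermatogonia genes and the pachytene and later, Sertoli cell, peritubular and stromal, and Leydig cell markers lie lower in each Eef1g-cKO library than in each control library.

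To place the 9 genes in the L/Z transcriptome, their levels were compared per length, as reads per kilobase per 1000000 (RPKM) with the deposited gene lengths. In control, Dmrt1 was the most abundant at 353 ± 22.4 RPKM (SD, n = 3), rank 132 of the 8513 tested genes. Rhox13 at 107 ± 19.1 and Sohlh1 at 89.4 ± 24.6 RPKM followed, and their ranges overlapped. Crabp1 came next at 51.0 ± 3.60 RPKM, then Dmrtb1 at 32.6 ± 4.92, Kit at 30.5 ± 6.30 and Sohlh2 at 22.5 ± 7.23 RPKM, of which neighbours overlapped. Ccnd2 at 11.5 ± 3.63 and Lin28b at 6.53 ± 1.40 RPKM were the lowest, and their ranges did not overlap. All 9 genes thus gave signal in control cells sorted as meiotic.

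The order per length was different in Eef1g-cKO. Rhox13 rose to 242 ± 84.8 RPKM, beside Dmrt1 at 213 ± 36.7 RPKM, with overlapping ranges. Sohlh1, at 34.1 ± 9.35 RPKM, lay near Dmrtb1 (29.3 ± 8.89) and Sohlh2 (24.97 ± 9.49). Kit (13.0 ± 2.10), Lin28b (12.2 ± 3.07) and Crabp1 (10.5 ± 4.86 RPKM) overlapped, and Ccnd2 was lowest at 2.28 ± 0.75 RPKM. Together the 9 genes took 0.173% to 0.191% of all reads in control and 0.095% to 0.133% in Eef1g-cKO libraries, so the ranges did not overlap. Dmrt1 alone supplied most of these reads in control.

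**Figure D2:**
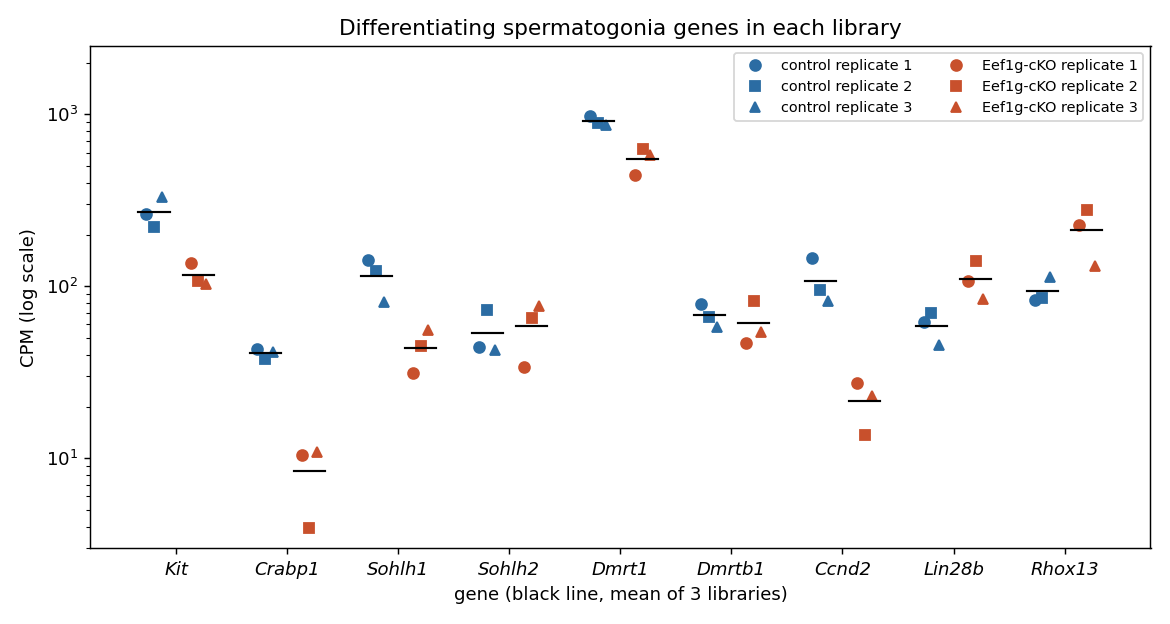
CPM on a log axis for each of the 9 genes in each library (blue, control, orange, Eef1g-cKO, shape, replicate), with a black line at the mean of 3 libraries. The genotypes do not overlap for Kit, Crabp1, Sohlh1, Dmrt1, Ccnd2, Lin28b and Rhox13, and they overlap for Sohlh2 and Dmrtb1.

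Of the 9 genes, 5 were lower and 2 were higher in Eef1g-cKO at an adjusted p under 0.05, against 6.01% of all tested genes lower and 7.8% higher. With an absolute log2 fold change over 1 as well, 4 were lower and 1 was higher, where the whole table gave 4.96% and 3.42%. CPM values did not overlap between the genotypes for 7 of the 9, compared with 34.5% of all tested genes. Their log2 fold changes had a median of −0.73, and those of all tested genes had a median of −0.05. Without Eef1g-cKO replicate 3, the library that stood apart, the same 7 genes kept an adjusted p under 0.05 and their direction, with log2 fold changes of −2.56 for Crabp1, −2.41 for Ccnd2, −1.53 for Sohlh1, −1.13 for Kit, −0.73 for Dmrt1, 1.11 for Lin28b and 1.46 for Rhox13. These genes were brought together with earlier results of these data known, so their counts are a description.

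Kit (ENSMUSG00000005672, chromosome 5, 75574916 to 75656722, plus strand, GRCm38) is the surface receptor that gives Kit-positive spermatogonia their name. It had 345, 419 and 592 reads in control replicates 1 to 3, or 263, 220 and 331 CPM. In Eef1g-cKO replicates 1 to 3 it had 170, 273 and 67 reads, or 137, 107 and 103 CPM. Every Eef1g-cKO library lay below every control library, and the 3 Eef1g-cKO values were close together despite the difference in depth. The log2 fold change was −1.22 (SE 0.22, 95% interval −1.68 to −0.77, adjusted p 0.00108), a 2.33-fold fall. Kit stayed past 0.05 in all 17 other fits, from −1.41 to −1.05. Leydig cells also express Kit. Their markers were low in both genotypes and lower in sum in each Eef1g-cKO library (above). Star, 1 of them, had 14, 18 and 11 reads in control and 8, 4 and 2 in Eef1g-cKO. The part of Leydig cells in the Kit values was not tested.

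Crabp1 (ENSMUSG00000032291, chromosome 9, 54764748 to 54773110), which binds retinoic acid, had 57, 72 and 74 reads in control and 13, 10 and 7 reads in Eef1g-cKO. These were 43.5, 37.8 and 41.4 CPM against 10.5, 3.92 and 10.8 CPM. Control libraries were nearly alike, and the lowest Eef1g-cKO value was in replicate 2, the deepest library. The log2 fold change was −2.38 (SE 0.53, 95% interval −3.48 to −1.28, adjusted p 0.00524), with a 5.19-fold lower level. The wide interval goes with the low counts. It kept its side of the threshold in all 16 other fits that could test it, from −2.66 to −1.92.

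The bHLH partners did not move alike. Sohlh1 (ENSMUSG00000059625, chromosome 2, 25842995 to 25847248, minus strand) gave 143, 122 and 80.6 CPM in control against 31.5, 44.7 and 55.6 CPM in Eef1g-cKO. The highest Eef1g-cKO library was still below the lowest control library. Its log2 fold change was −1.41 (SE 0.32, 95% interval −2.07 to −0.75, adjusted p 0.00575). Without control replicate 1 the value was −1.21 with an adjusted p of 0.0531, and the block with a GC content offset gave −0.99 and 0.0833. In the other 15 fits the adjusted p was under 0.05.

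Sohlh2 (ENSMUSG00000027794, chromosome 3, 55182028 to 55209957, plus strand) gave 44.3, 73.0 and 42.5 CPM in control against 33.96, 65.9 and 77.2 CPM in Eef1g-cKO. The genotypes overlapped throughout. The log2 fold change was 0.13 (SE 0.36, adjusted p 0.855), and its 95% interval of −0.63 to 0.89 left room for moderate change in either direction. Its sign turned in 5 of 17 other fits. Within each library, where scaling cancels, Sohlh1 per kilobase was 5.91, 3.07 and 3.47 times Sohlh2 in control and 1.70, 1.24 and 1.32 times Sohlh2 in Eef1g-cKO. These ratios, chosen after the values were seen and given without a test, did not overlap.

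Dmrt1 (ENSMUSG00000024837, chromosome 19, 25505618 to 25604329, plus strand), the DM domain factor that holds spermatogonia back from meiosis, had the most reads of the 9 genes. It gave 981, 892 and 872 CPM in control against 446, 630 and 579 CPM in Eef1g-cKO. Both groups were tight, and the gap between them was wider than the spread within either. The fall was 1.66-fold (log2 fold change −0.73, SE 0.16, 95% interval −1.06 to −0.39, adjusted p 0.00498). It did not reach the fold change limit and stayed past 0.05 in 16 of 17 other fits, the exception being the replicate block with a GC content offset (−0.50, adjusted p 0.0962). Sertoli cells also express Dmrt1, and Sertoli markers were lower in Eef1g-cKO (above). Within control, Dmrt1 was highest in replicate 1, where the Sertoli sum was lowest at 323 CPM. The part of Sertoli cells in the Dmrt1 values was not tested.

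Dmrtb1 (ENSMUSG00000028610, chromosome 4, 107676290 to 107684230, minus strand), which acts at the mitosis to meiosis transition, gave 78.6, 66.7 and 58.2 CPM in control. Eef1g-cKO libraries gave 46.9, 81.9 and 54.1 CPM, on both sides of the control values. The log2 fold change was −0.13 (SE 0.31, 95% interval −0.79 to 0.53, adjusted p 0.834), and its sign turned in 3 of 17 other fits. Dmrt1 per kilobase was 10.02, 10.7 and 12.02 times Dmrtb1 within the control libraries and 7.63, 6.17 and 8.60 times within the Eef1g-cKO libraries, again without overlap and without a test. Among 9 further DMRT genes only 2 had enough reads. Dmrtc2, a testis DMRT gene, rose from 66.9 ± 11.7 to 144 ± 30.2 CPM (log2 fold change 1.11, adjusted p 0.00814), lost without control replicate 1 (adjusted p 0.051), and Dmrt3 gave a log2 fold change of −1.70 (adjusted p 0.119).

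Ccnd2 (ENSMUSG00000000184, chromosome 6, 127125162 to 127152193, minus strand) encodes cyclin D2, made as spermatogonia begin to differentiate. It had 192, 182 and 146 reads in control and 34, 35 and 15 reads in Eef1g-cKO. The levels were 147, 95.5 and 81.7 CPM against 27.5, 13.7 and 23.2 CPM. Every control library lay far above every Eef1g-cKO library, although control libraries also differed among themselves. Ccnd2 fell 5.17-fold (log2 fold change −2.37, SE 0.37, 95% interval −3.13 to −1.60), with the smallest adjusted p of the 9 genes, 0.000329. Other fits gave −2.61 to −2.05, all past the threshold. A pair of antisense genes overlap its exons, with 2 and 0 reads in all libraries together, and reads from the shared stretch cannot be told apart without strand.

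Rhox13 (ENSMUSG00000050197, chromosome X, 38121219 to 38129967, plus strand), the homeobox gene whose protein appears in differentiating spermatogonia and early spermatocytes, went the other way. It had 109, 162 and 202 reads in control and 280, 708 and 85 in Eef1g-cKO, or 83.2, 85.0 and 113 CPM against 226, 278 and 131 CPM. Replicate 3 was the lowest of the Eef1g-cKO libraries and the highest of the control libraries, and the gap between those was small. The log2 fold change was 1.19 (SE 0.26, 95% interval 0.65 to 1.74, adjusted p 0.00498). All 17 other fits kept the adjusted p under 0.05, and without Eef1g-cKO replicate 2 the log2 fold change was 0.96, below the limit of 1. Within libraries, Kit per kilobase was 0.311, 0.254 and 0.288 of Rhox13 in control and 0.0597, 0.0379 and 0.0775 of it in Eef1g-cKO. This ratio too was chosen after the values were seen and carries no test. Other ratios overlapped between genotypes, namely Kit to Dmrt1, Ccnd2 to Ccnd1 and Stra8 to Kit. Kit to Dmrt1 was 0.078, 0.072 and 0.111 in control against 0.090, 0.049 and 0.052 in Eef1g-cKO.

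Lin28b (ENSMUSG00000063804, chromosome 10, 45376620 to 45486395, minus strand), the let-7 antagonist, gave 61.8, 70.3 and 45.3 CPM in control against 108, 140 and 85.0 CPM in Eef1g-cKO. No control library reached the lowest Eef1g-cKO library. The rise had a log2 fold change of 0.92 (SE 0.29, 95% interval 0.32 to 1.53) and an adjusted p of 0.0395. It did not reach the fold change limit, and it was the least stable of the 7 differences, since the adjusted p was above 0.05 in 11 of 17 other fits. They include library totals (0.75, adjusted p 0.12), the GC content offset (0.59, adjusted p 0.212) and each fit that left out a control library or Eef1g-cKO replicate 1 or 2, whereas the fit without Eef1g-cKO replicate 3 had an adjusted p of 0.00886. The direction was upward in every fit.

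**Figure D3:**
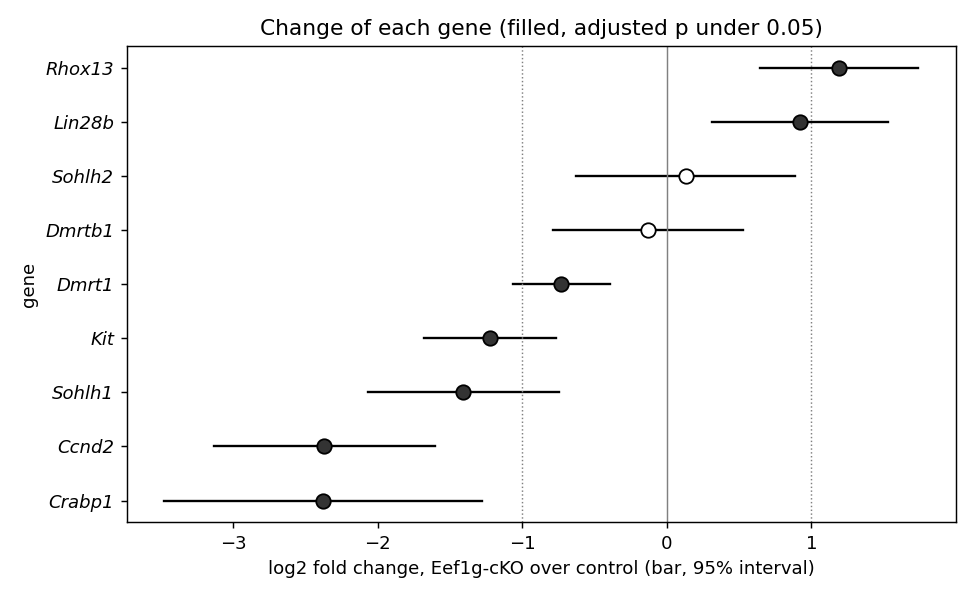
Log2 fold change (Eef1g-cKO over control, horizontal axis) of each of the 9 genes with its 95% interval, filled where the adjusted p was under 0.05, with dotted lines at −1 and 1. Crabp1 (−2.38) and Ccnd2 (−2.37) lie farthest to the left, Rhox13 (1.19) farthest to the right, and the intervals of Sohlh2 and Dmrtb1 span 0.

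**Figure D4:**
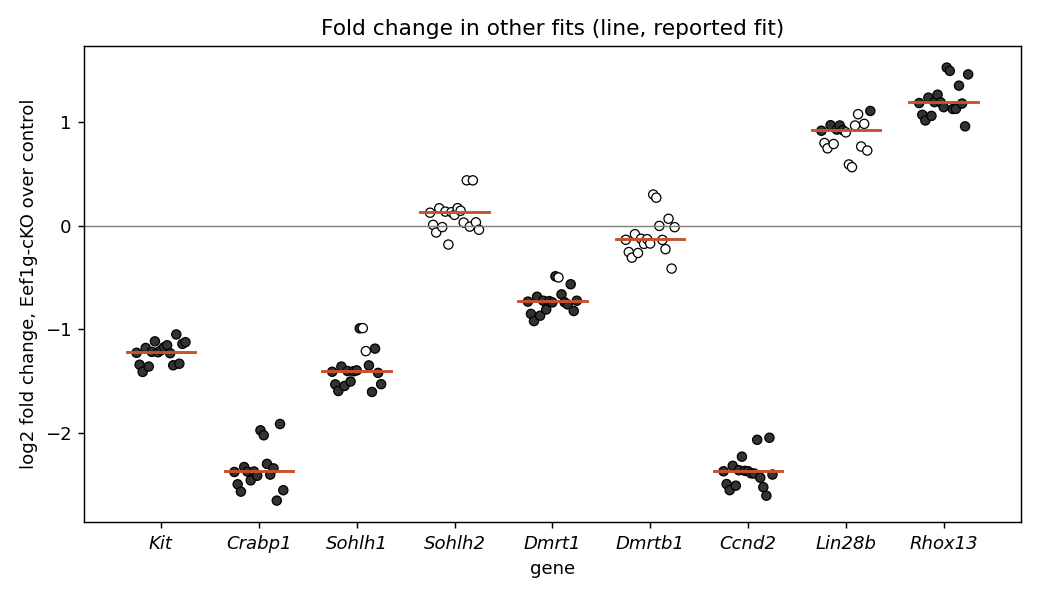
Log2 fold change of each gene in the other fits (points, filled where the adjusted p was under 0.05) around the reported value (orange line). Points of Kit, Crabp1, Ccnd2 and Rhox13 are all filled, most of those of Lin28b are open, and those of Sohlh2 and Dmrtb1 lie on both sides of 0.

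Genes whose transcripts followed Kit most closely were sought among 4713 others averaging 50 reads or more per library. Likeness was the root mean square difference in log2 CPM over the 6 libraries, each gene centred on its own mean. The closest were Nfe2l2 (difference 0.12), encoding a transcription factor of the oxidative stress response, Cyfip1 (0.16), an actin regulator, Fgfr1 (0.17), a growth factor receptor, Prkar2b (0.17), a protein kinase A subunit, and Bub3 (0.17), a spindle checkpoint gene. Among 7 of the other members with enough reads, Dmrt1 (0.41) and Sohlh1 (0.53) were the nearest to Kit, and Lin28b (1.13) and Rhox13 (1.204) the farthest. The 6 points share genotype and library, so this is a description.

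KIT relays its signal through adaptor proteins and the lipid kinase phosphatidylinositol 3-kinase, and is removed from the surface with the help of ubiquitin ligases. Cbl, such a ligase, had 166, 127 and 178 CPM in control against 93.8, 176 and 148 CPM in Eef1g-cKO, with overlap (log2 fold change −0.16, adjusted p 0.721). Pik3r1, a regulatory subunit of the lipid kinase, had 31, 20 and 16 reads in control and 5, 9 and 2 in Eef1g-cKO. Its log2 fold change of −1.96 did not pass the test (SE 0.79, adjusted p 0.108), nor did it in any of 16 other fits.

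Retinoic acid genes were mostly too low to test, with 5 of 19 passing the count filter. The receptors Rara and Rarg had at most 10 and 7 reads in any library. Of the 5, 2 were lower and the others did not pass, against 6.01% of all tested genes lower. Aldh1a1, which makes retinoic acid, had 19, 94 and 35 reads in control and 3, 5 and 4 in Eef1g-cKO (log2 fold change −3.17, adjusted p 0.00675), and without control replicate 2, which held most of its reads, the adjusted p was 0.157. Cyp26b1, which degrades retinoic acid, had 38.2, 43.6 and 40.3 CPM in control against 16.2, 8.23 and 3.09 CPM in Eef1g-cKO (−2.08, adjusted p 0.0121), and it missed the threshold without control replicate 2 or 3. Rdh10, of the first oxidation step, did not separate (0.10, adjusted p 0.879). Somatic cells of the testis make Aldh1a1 and Cyp26b1 too, and the Sertoli and stromal sums were also lower in Eef1g-cKO (above). Within control, Aldh1a1 was highest in replicate 2, as was the Sertoli sum, whereas Cyp26b1 varied little. The part of somatic cells in these values was not tested.

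Meiotic entry genes, of the step that follows differentiation, showed both directions. Stra8, needed for meiotic initiation and the gene that drives the Cre used here, had 663, 436 and 426 CPM in control against 280, 278 and 391 CPM in Eef1g-cKO, without overlap. It fell by 0.69 on the log2 scale (SE 0.20, adjusted p 0.0265), and 6 of 17 other fits, among them those without control replicate 1 or without Eef1g-cKO replicate 1 or 2, had an adjusted p above 0.05. Meioc, which extends meiotic prophase, rose from 407 ± 84.5 to 940 ± 191 CPM (log2 fold change 1.21, adjusted p 0.00036), and its RNA-binding partner Ythdc2 from 369 ± 37.6 to 677 ± 130 CPM (0.87, adjusted p 0.0023). Rbm46 gave a log2 fold change of 0.51 (adjusted p 0.0327), passed by 8 of 17 other fits. Of the 4 tested, 1 was thus lower and 3 were higher, against 6.01% and 7.8% of all tested genes. Gm4969 had at most 22 reads in any library.

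Around cyclin D2, 13 of 20 cell cycle genes were tested, with 1 lower and 1 higher. These counts were close to the shares over all tested genes, 6.01% lower and 7.8% higher. Ccnd1, the related D-type cyclin, fell beside Ccnd2, from 116, 81.4 and 95.2 CPM to 25.9, 33.7 and 35.5 CPM, with a log2 fold change of −1.62 (SE 0.31) and an adjusted p of 0.00197, and stayed past 0.05 in all 17 other fits. Their kinase partner Cdk4 had 20.6, 24.1 and 20.7 CPM in control against 5.66, 7.45 and 0 CPM in Eef1g-cKO, with an adjusted p of 0.0555. Rb1, the brake that these kinases release, gave a log2 fold change of 0.91 (adjusted p 0.0223), held in 9 of 17 other fits. Cdk2, used later in the cycle and in meiosis, was the most abundant of the list and gave 0.25 (adjusted p 0.422). Ccnd3 had at most 12 reads in any library.

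Around LIN28B, 11 of 14 listed genes in the table were tested, with 1 lower and the others not past the threshold. Over all tested genes, 6.01% were lower, so this count was near the general share. Trim71, a let-7 target and stem cell factor, fell from 84.0, 82.9 and 64.9 CPM to 3.23, 9.02 and 9.27 CPM, with a log2 fold change of −3.41 (SE 0.44) and an adjusted p of 5.6e-05. Lin28b and Trim71 thus parted: Lin28b per kilobase was 0.758, 0.873 and 0.719 of Trim71 in control and 34.2, 16.0 and 9.44 times Trim71 in Eef1g-cKO. That ratio was likewise chosen after the values were seen and carries no test. Lin28a, the paralog of the undifferentiated stage, had 18, 5 and 13 reads in control and 0 in each Eef1g-cKO library. Tut4, the uridylating enzyme that acts with LIN28, was at 507 ± 48.4 and 591 ± 64.2 CPM (0.22, adjusted p 0.389), and Dicer1 gave −0.08 (adjusted p 0.895). The let-7 microRNAs themselves are not measured by these polyadenylated RNA libraries.

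Rhox13 lies in the X-linked Rhox homeobox cluster, of which 12 other genes were listed and 2 tested. Rhox8, a Sertoli cell gene, fell from 159 ± 39.1 to 52.8 ± 29.5 CPM (log2 fold change −1.67, adjusted p 0.00289), opposite to Rhox13. Rhox2a was low, at 10.2 ± 2.92 and 15.8 ± 3.30 CPM (0.62, adjusted p 0.555). Rhox10, known from early spermatogonia, had 6, 20 and 32 reads in control and 0 in each Eef1g-cKO library, too few to be tested. Rhox11, by contrast, had 13 and 34 reads in Eef1g-cKO replicates 1 and 2, 2 reads in control replicate 2, and 0 in the others.

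**Figure D5:**
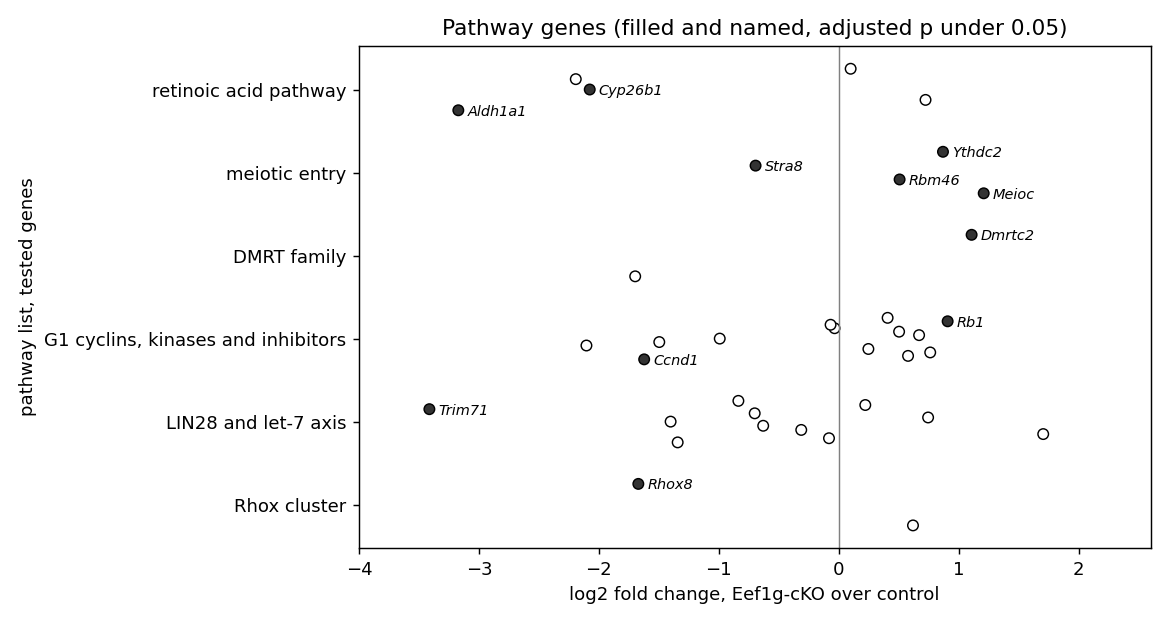
Log2 fold change (Eef1g-cKO over control, horizontal axis) of the tested genes of 6 pathway lists, 1 point a gene, filled and named where the adjusted p was under 0.05. Trim71 (−3.41), Aldh1a1 (−3.17) and Cyp26b1 (−2.08) lie far to the left, and Meioc (1.21) and Dmrtc2 (1.11) lie to the right.

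The neighbouring germ cell stages were read the same way. Beside the counts that follow, 6.01% of all tested genes were lower and 7.8% were higher. Of 19 undifferentiated spermatogonia markers found, 5 were tested, with 2 lower and 1 higher. Sall4, a stem cell factor also expressed as differentiation begins, had 103, 176 and 145 reads in control and 23, 19 and 0 in Eef1g-cKO (log2 fold change −3.15, adjusted p 0.00101). Foxo1 gave a log2 fold change of −1.11 (adjusted p 0.0342), held in 10 of 17 other fits, and Taf4b of 0.64 (adjusted p 0.0184), held in 11. Among the 16 L/Z markers, 15 were tested, with 11 higher and the others not past the threshold, and Dmc1, a meiotic recombinase, gave the largest rise (1.87, adjusted p 2.26e-06). Of 15 pachytene and later markers, 10 had 3 reads or fewer in every library and 3 were tested. Piwil1, a piRNA pathway gene, fell from 34, 22 and 30 reads to 0, 1 and 0 (adjusted p 0.00142), whereas Tbpl1, at 166, 223 and 199 reads in control and 146, 289 and 64 in Eef1g-cKO (log2 fold change −0.10, adjusted p 0.832), and Ldhc (−0.52, adjusted p 0.726) did not pass the test.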

How the data were processed

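Leptotene/zygotene spermatocytes of 3 control and 3 Eef1g-cKO mouse samples at 12 dpp were profiled by full-length cDNA amplification and paired-end sequencing without molecular identifiers, so floors cover counting error only. The authors filtered reads with fastp, aligned them to GRCm38 with HISAT2 and deposited raw counts per gene from featureCounts, with symbol, position and length. Strand and multi-mapping settings are not given in the sources used here. Columns were matched to samples by name, and groups and replicate numbers came from sample titles.

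The counts entered edgeR 4.0.16 (R 4.3.3), where filterByExpr (minimum count 10, total 15) chose genes and TMM scaled libraries. Genotype was the only term of a robust quasi-likelihood F test, with Benjamini-Hochberg adjustment over 8513 genes. "Lower" and "higher" mean an adjusted p under 0.05, and "called" adds an absolute log2 fold change over 1. The size of the log2 fold change over the root of F gave its standard error. CPM and RPKM were computed from the deposited counts with TMM-scaled totals. No 2 libraries agreed within sampling noise (chi-square per degree of freedom at least 6.37).

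The members and gene lists were chosen with earlier results of these data known. Genes named are Eef1g, the 9 members, up to 4 most abundant and 3 of smallest adjusted p in each list, and the 5 genes most like Kit. Rara, Rarg, Gm4969, Ccnd3, Lin28a, Rhox10, Rhox11, Amh and Gata4, all too low to test, and Sox9 and Wt1 were added after their values were seen. DESeq2 1.42.0, limma-voom (limma 3.58.1), other scalings and filters, a replicate block, a GC content offset from GENCODE M21 transcripts and fits without 1 library were alternatives. The test was checked on simulated counts. Some results of the KIT signalling list are not reported here.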

Additional observations from a re-analysis of the deposited data

How the results depend on the processing

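Of the 9 genes, Kit, Ccnd2, Crabp1 and Rhox13 kept their direction and an adjusted p under 0.05 in all other fits that tested them (17, and 16 for Crabp1, which fell under a filter of 10 reads in every library). The count called lower, 4, was 3 to 5 under the alternatives. The count called higher, 1, was 2 without the fold change limit and 0 to 2 with 1 library left out (0 without Eef1g-cKO replicate 2, 2 without replicate 3). Sohlh2 turned sign, none past the threshold, with library totals (−0.0664), a minimum of 10 reads per library (−0.0140) and limma-voom (−0.18), and ranged from −0.0399 to 0.438 with 1 library left out. Dmrtb1 turned with the GC content offset (0.30), with the replicate block and that offset (0.27), and ranged from −0.415 to 0.0666 with 1 library left out.

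Library totals, upper-quartile scaling and the filter of 10 reads shifted the log2 fold change of a gene fitted both ways by a median of −0.19, −0.12 and −0.14. Over all genes, 422 were called lower and 291 higher. Lower calls came to 250 with a minimum of 10 reads per library, 819 at unadjusted p and 207 to 548 with 1 library left out. The number higher was 181 with upper-quartile scaling, 141 with library totals, 177 with that minimum, 184 with the block and GC content offset and 664 without the fold change limit. Eef1g stayed negative and missed 0.05 without the low-count filter (−0.64), with the replicate block (−0.69), the GC content offset (−0.48) and both (−0.49), and ranged from −0.75 to −0.56 with 1 library left out. The causes were not tested.

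Deviations of same-numbered libraries correlated at −0.04, 0.02 and −0.05, so no pairing by replicate number was seen. With 3 libraries per genotype, these values cannot exclude pairing. The authors describe the controls as littermates, and which libraries shared a litter is not stated. With the replicate block, Kit was at −1.205 and Lin28b at 0.90 (adjusted p 0.059). Low counts limit Crabp1, with 7 to 13 reads in Eef1g-cKO.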

Other observations

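Some markers of the earliest germ cells not named above, all too low to be tested, were read mainly in control, and others were not. They belong to the undifferentiated spermatogonia list, so the sums of that list above already hold their reads. Ret, the co-receptor of stem cell growth factor signalling, had 9, 12 and 28 reads in control and 0 in each Eef1g-cKO library. Zbtb16 had 14, 7 and 29 reads in control against 0, 2 and 2, Cdh1 had 4, 27 and 2 against 0 in each, and Nanos3 had 2, 6 and 6 against 0 in each. Upp1 (4, 4 and 0 reads in control against 0, 7 and 0 in Eef1g-cKO) did not separate. Neither did Eomes (4, 0 and 4 against 0, 7 and 0) or Nanos2 (0, 0 and 2 against 1, 0 and 0). The DMRT gene Dmrta1, with 8, 12 and 22 reads in control, also had 0 in each Eef1g-cKO library. Of the 19 undifferentiated spermatogonia markers, 6 had no read in any Eef1g-cKO library and 2 had none in any control library. Those 2, Neurog3 and Lhx1, had no read in any library and are in both counts. Fewer genes of the whole table had a read in Eef1g-cKO libraries, at 11174 to 14514, than in control libraries, at 14903 to 15761. Eef1g-cKO replicate 3 was also the shallowest library, with 763133 reads. The share of all genes without a read in any library of a genotype was not computed. The zero counts above are thus not a result about these markers. These genes were picked after their counts were seen and carry no test.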
